A study of Mus musculus with 120 samples.

Results

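A set of 10 genes that build the autophagosome was followed through thapsigargin treatment of mouse embryonic fibroblasts. They were picked by symbol, 10 of the 22417 genes of the deposited footprint and mRNA tables, and all 10 were present in both. Ulk1 encodes the kinase that starts autophagy, and Wipi1 a protein that reads phosphoinositides on the forming membrane. Atg3, Atg5 and Atg12 belong to the conjugation machinery. Map1lc3a, Map1lc3b, Gabarap, Gabarapl1 and Gabarapl2 encode the ATG8 family, the ubiquitin-like proteins that this machinery attaches to membrane lipid.

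The fibroblasts had 3 genotypes: wild type (WT, strain C57BL/6), an eIF2a S51A line whose eIF2a has alanine in place of the serine that stress kinases phosphorylate and a line labelled ATF4-/-. All were grown in DMEM with 10% FBS and either left untreated (0 h) or given 1 µM thapsigargin, an inhibitor of the calcium pump that fills the ER, for 0.5, 1, 2 or 4 h. Digitonin released a cytosol fraction and DDM an ER fraction, and ribosome footprints and mRNA were sequenced from each. Every combination of genotype, time, fraction and assay had 2 samples, 120 in all; nothing in the labels says that these were separate cultures, so p-values measure a spread that may be technical. Each genotype stands for a single line of cells, and genotype and line cannot be told apart.

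Autophagy carries cytoplasm, organelles and stretches of ER to the lysosome. ATG12 is first joined to ATG5 in a ubiquitin-like reaction, and the resulting conjugate helps ATG3 to couple the ATG8 proteins to phosphatidylethanolamine on the growing membrane. Under ER stress the kinase PERK phosphorylates eIF2a, which lowers translation initiation while favouring the mRNA of the transcription factor ATF4, and autophagy genes are among the known targets of the ATF4 and CHOP pathway.

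The ATG8 proteins end their conjugated form at a glycine, and the coding bases there show how far the paralogs differ, which bears on whether short footprints can be assigned to one of them. Shown are 30 coding bases of each gene on the plus strand of GRCm38, in 1 exon each, ending with the glycine codon in capitals, codon 120 of Map1lc3a and Map1lc3b and codon 116 of the others. In order they lie at chr2:155277602-155277631, chr8:121596723-121596752, chr11:69994489-69994518, chr6:129541132-129541161 and chr8:111952370-111952399.
Map1lc3a: atggtctacgcctcccaagaaaccttcGGC
Map1lc3b: atggtttatgcctcgcaggagacattcGGG
Gabarap: attgcctacagtgatgaaagcgtctatGGT
Gabarapl1: gtggcctacagtgatgaaagtgtctatGGA
Gabarapl2: gtggcctacagcggagagaacacttttGGC
Gabarap and Gabarapl1 differed at 4 of these 30 bases and Map1lc3a and Map1lc3b at 7, while the other pairs differed at 11 to 21. The longest run shared by the coding sequences of any pair was 17 bases, between Gabarap and Gabarapl1, so no 28-base window was common to 2 family members. Pseudogene copies overlap far more. Of the 351 coding windows of 28 bases in Map1lc3b, 100% also occurred in transcripts of 5 processed pseudogenes, as did 98.8% of the 327 windows of Gabarapl2 in 6 processed pseudogenes and 1 further gene, against 0.917% of those of Gabarap and 0 for Map1lc3a and Gabarapl1. The sources used here do not say how such reads were counted, and levels of Map1lc3b and Gabarapl2 are uncertain for that reason.

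Atg3 and Atg5 are the members whose promoters hold a motif that was searched. RefSeq promoters (GRCm38.p6, 250 bases before to 50 after the start) were found for 8 of the 10 members and were read on both strands. CACGTG, the E-box bound by TFEB and related factors, occurred in 7.15% of 32851 promoters. TGACGTCA, the cAMP response element, occurred in 1.79%. TGATGNAA, a form of the element bound by CHOP and ATF4 dimers, occurred in 3.97% and in no member. The matches, in capitals within 30 bases of the plus strand, were at chr16:45158723-45158752 and chr16:45158746-45158775 for Atg3 and at chr10:44268313-44268342 and chr10:44268327-44268356 for Atg5, the last holding the cAMP response element.
Atg3 E-box, upstream: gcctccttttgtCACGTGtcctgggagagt
Atg3 E-box, downstream: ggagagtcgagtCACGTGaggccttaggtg
Atg5 E-box: cggagcgcttgcCACGTGgtcttggtgacg
Atg5 cAMP response element: cgtggtcttggTGACGTCAtctccgggcgc
A match of letters is a description of the sequence, not of binding.

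Levels are RPKM, reads per kilobase of coding sequence scaled to sequencing depth, so they are relative to the other genes of a library and do not show a fall or rise of all translation. In such bulk samples fewer cells of a type and less RNA per cell cannot be told apart. The authors' totals pool replicates and add the fractions. Levels of single libraries, called a and b in each group, were recovered from the digits of these totals. In each pair b is by naming the library where a read counts for more RPKM, generally the shallower. The letter therefore marks no shared replicate or batch. A library listed at 0 may hold up to 3 reads in WT, and the authors' totals average only libraries with reads. Depth differed between lines: WT footprint libraries had between 298952 and 11094756 reads, those of S51A between 6229126 and 15167088, and those of cells labelled ATF4-/- between 2023221 and 8708142. The shallowest 3 were WT b libraries, from cytosol at 0.5 h (298952 reads) and 1 h (388963) and from ER at 1 h (418179), and every 0 of a member's footprints lies in them. Fibroblast markers (6 of 6) were footprinted in each genotype, and summed immune, endothelial, epithelial and muscle markers stayed at or below 2.65 RPKM. Atf4 went against a label: its pooled footprint total in cells labelled ATF4-/- was 11.5 RPKM at 0 h and 362 at 4 h, against 132 and 1371 in WT and 44.6 and 65.7 in S51A. A level per gene cannot tell whether these reads lie outside a deleted stretch. Other genes of the stress response rose in these cells as well. Between 0 and 4 h their pooled footprint totals went from 0.773 to 71.7 RPKM for Trib3, from 0.689 to 106 for Ddit3 and from 1.03 to 12.2 for Ppp1r15a. In the same order, totals at 4 h were 138, 261 and 96.9 in WT and 1.19, 9.54 and 2.61 in S51A. Whether ATF4 function is lost in cells labelled ATF4-/- was not tested. The label is therefore kept as a name, and each direction given for these cells rests on it.

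**Figure D1:**
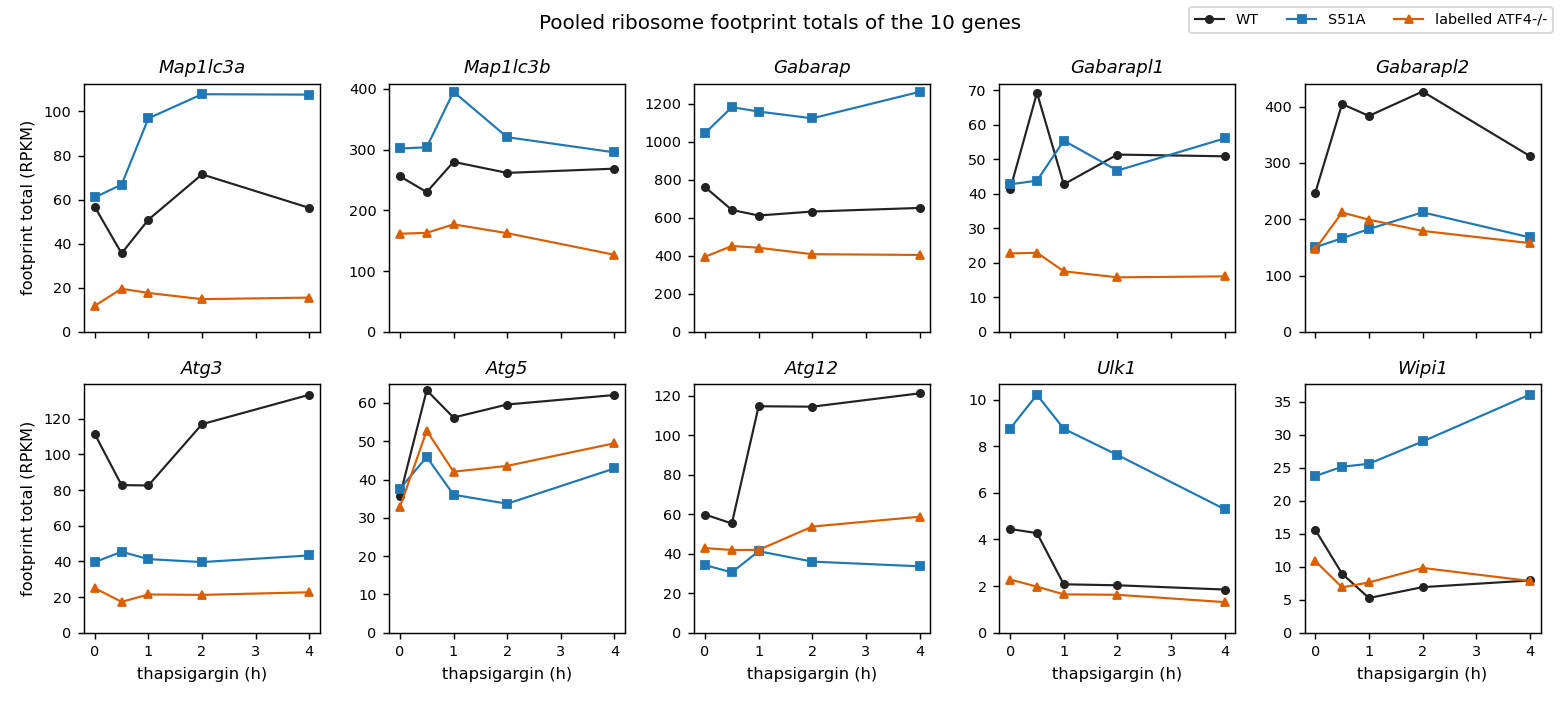
Authors' pooled footprint total in RPKM (vertical axis, from 0) of each member against hours of thapsigargin, with WT in black circles, S51A in blue squares and cells labelled ATF4-/- in orange triangles. Atg5 rises in WT from 35.7 to 62.1 between 0 and 4 h, Ulk1 falls from 4.45 to 1.85, and Wipi1 falls to 5.27 at 1 h in WT while its S51A total goes from 23.8 to 36.1.

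Footprints on the members spanned 3 orders of magnitude per length. Gabarap had the highest pooled totals, 395 to 1262 RPKM over the 15 combinations of genotype and time, and Ulk1 the lowest, 1.31 to 10.2 RPKM. Map1lc3b lay between 127 and 395 RPKM and Gabarapl2 between 147 and 427, ranges that overlap. Relative to its own level, Map1lc3a varied most, over 3.08 log2 units of RPKM + 1, and Atg5 least, over 0.93.

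With thapsigargin, WT footprints of Atg5 rose at all 4 times, those of Ulk1 fell from 1 h and those of Wipi1 fell at 0.5, 1 and 2 h. Gabarapl2 rose at 2 h. Changes were tested in limma on log2(RPKM + 1), averaged over both fractions, with Benjamini-Hochberg adjustment over 10410 to 10418 genes and a threshold of 0.05. In WT 3 of 10 members were called at 0.5 h, where 33.1% of all genes were called, 3 at 1 h (28.8% of genes), 4 at 2 h (23.3%) and 2 at 4 h (17.6%). At 3 of 10 against 33.1 and 28.8%, and 2 of 10 against 17.6%, these shares are near the background. Of the 40 WT values 5 were called higher and 7 lower. The median change of the members was -0.25, -0.15, 0.18 and 0.24 at the 4 times, beside -0.04, -0.08, 0.04 and 0.08 for all genes.

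In S51A none of the 40 member values was called in limma, where 0, 0.374, 6.95 and 8.23% of genes were called at the 4 times. At an unadjusted p under 0.05 there were 4. Of these 1 was at 2 h, beside 2085 of 10411 genes, and 3 were at 4 h, beside 2088 of 10410. In the model weighted by read precision (voom) 4 of the 40 values were called. The share of all genes called in that model is not given here, so this count describes the model and not the members. In cells labelled ATF4-/- 1 of 40 was called, Atg5 at 4 h, beside 13.8, 12.4, 11.5 and 15.8% of all genes. Whether a change differed between genotypes was tested at 1 and 4 h as a difference of changes. For S51A against WT 2 of 10 members were called at 1 h, Ulk1 and Wipi1, beside 11% of genes, and none at 4 h, beside 8%. At 4 h 3 members had an unadjusted p under 0.05, beside 2158 of 10410 genes. For cells labelled ATF4-/- against WT none was called at 1 h or at 4 h, where 0.662 and 1.96% of genes were. At an unadjusted p under 0.05 there were 2 and 0 members, beside 1559 of 10416 and 1476 of 10415 genes. Without the WT cytosol library a of 1 h Ulk1 passed at 1 h (0.87, adjusted p = 0.0286). Both contrasts share the WT libraries.

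**Figure D2:**
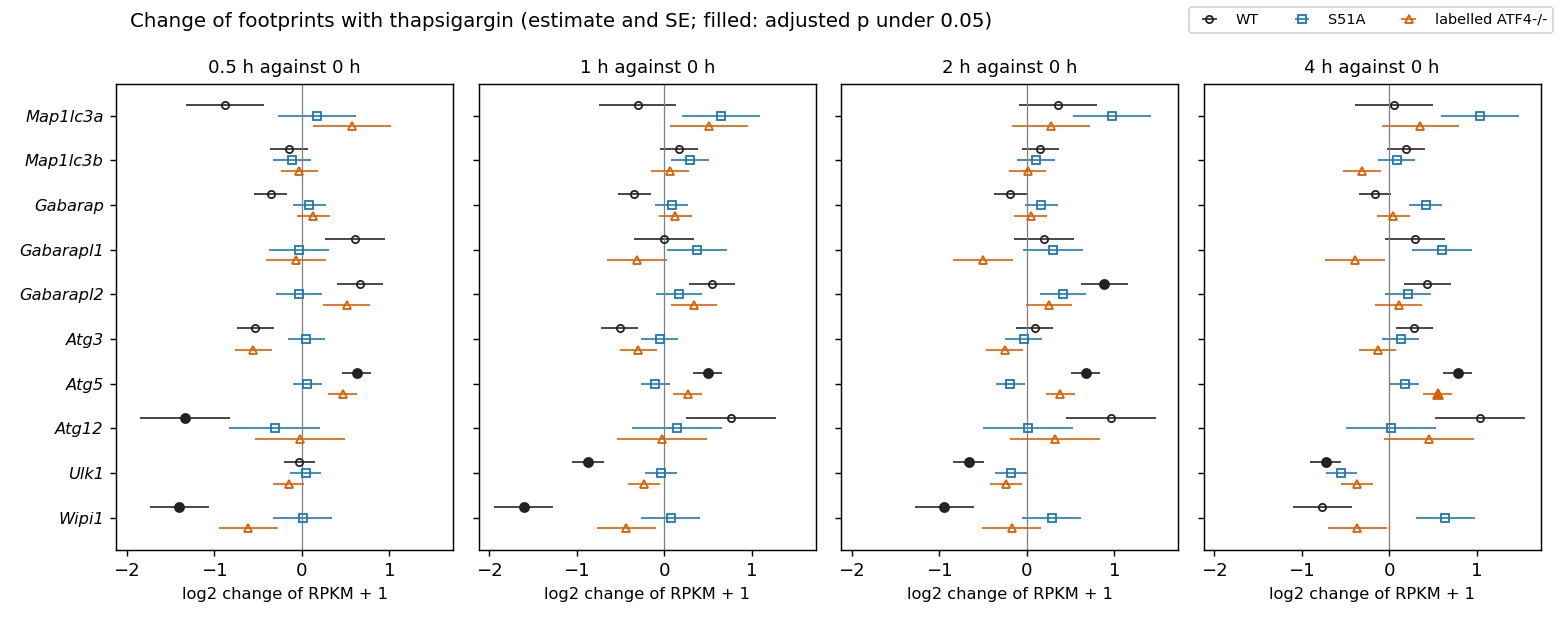
Estimated log2 change of footprint RPKM + 1 against 0 h (horizontal axis) for each member at each time, with bars of 1 SE and filled symbols for adjusted p under 0.05 in limma; colours as for the pooled totals. In WT 12 of 40 symbols are filled, in cells labelled ATF4-/- 1 and in S51A none.

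Ulk1, the kinase at the head of the pathway (chr5:110784488-110810097 in GRCm38, minus strand, 28 exons), had few reads in WT, a median of 19.5 per library and 0 to 115, and 247 in S51A. In WT cytosol its footprint level was 2.60 RPKM in library a and 2.86 in b at 0 h, 2.56 and 2.48 at 0.5 h, 0.875 and 0 at 1 h, 1.46 and 0.821 at 2 h, and 1.19 and 0.971 at 4 h. In WT ER the values were 1.38 and 2.06 at 0 h, 1.86 and 1.64 at 0.5 h, 1.33 and 1.08 at 1 h, 1.03 and 0.762 at 2 h, and 0.648 and 0.9 at 4 h. From 1 h on every WT library lay below both untreated libraries of its fraction. The change was -0.03 at 0.5 h (adjusted p = 0.931), -0.87 ± 0.18 (SE) at 1 h (adjusted p = 0.000496), -0.66 at 2 h (adjusted p = 0.00697) and -0.73 ± 0.18 at 4 h (adjusted p = 0.00422), by limma. The call at 1 h remained without the 3 shallow libraries (-0.60, adjusted p = 0.0226), and those at 2 and 4 h were lost when WT was fitted alone (adjusted p = 0.0763 and 0.0638), the former also with voom (adjusted p = 0.0891). Within the ER fraction alone the fall did not pass at 1 h (-0.30, adjusted p = 0.444), 2 h (-0.51, adjusted p = 0.194) or 4 h (-0.61, adjusted p = 0.135). In cytosol it passed at 1 h (-1.44, adjusted p = 8.34e-05), 2 h (-0.82, adjusted p = 0.0262) and 4 h (-0.84, adjusted p = 0.0366).

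In S51A cytosol Ulk1 stood at 5.42 and 5.89 RPKM at 0 h, 6.25 and 5.97 at 1 h, and 2.72 and 3.54 at 4 h. In S51A ER it stood at 3.13 and 3.07 at 0 h, 2.38 and 2.90 at 1 h, and 1.57 and 2.78 at 4 h. All untreated S51A libraries were above the untreated WT libraries of the same fraction, and at 4 h all S51A libraries were below their own untreated ones. The change in S51A was -0.04 at 1 h and -0.55 ± 0.18 at 4 h, the latter with an adjusted p of 0.0557 in limma. It was called with S51A fitted alone (adjusted p = 0.0393), a pseudocount of 4 (0.00817), TMM scaling (0.0387) or voom (-0.75, adjusted p = 0.00123), without the shallow WT libraries (0.0215) and without S51A ER b of 4 h (0.0276), and missed with a pseudocount of 0.25 (0.236) and in either fraction alone (0.204 and 0.584). Between S51A and WT the 1 h change differed by 0.83 ± 0.26 (adjusted p = 0.0311), higher in S51A. That call rests on thin margins: it was lost on leaving out any of 11 of the 16 libraries (adjusted p = 0.0506 to 0.112), namely all 8 S51A libraries except ER a of 1 h and the 4 WT b libraries, and without the shallow libraries (0.56, adjusted p = 0.131) and with voom (1.17, adjusted p = 0.0652). In cells labelled ATF4-/- the pooled total was 2.28 RPKM at 0 h and 1.31 at 4 h, a change of -0.37 (adjusted p = 0.174).

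Wipi1, a phosphoinositide-binding WD-repeat protein recruited to early autophagosomes (chr11:109573331-109611432, minus strand, 13 exons), fell early in WT. In WT cytosol its footprints were 10.3 and 10.5 RPKM at 0 h, 6.33 and 0 at 0.5 h, 2.71 and 5.14 at 1 h, 5.57 and 3.48 at 2 h, and 5.34 and 4.67 at 4 h. In WT ER they were 3.36 and 7.08 at 0 h, 2.27 and 2.96 at 0.5 h, 1.34 and 0 at 1 h, 2.21 and 2.56 at 2 h, and 3.31 and 2.54 at 4 h. Every treated WT library was below both untreated libraries of its fraction, by a narrow margin for ER a at 4 h. The change was -1.40 ± 0.34 (SE) at 0.5 h (adjusted p = 0.00194), -1.61 at 1 h (adjusted p = 0.00053), -0.94 at 2 h (adjusted p = 0.0394) and -0.77 at 4 h (adjusted p = 0.115), by limma. Without the cytosol library b listed at 0, the 0.5 h value was -0.68 (adjusted p = 0.0649). Without all 3 shallow libraries it was -0.68 (adjusted p = 0.0241) and the 1 h value -1.48 (adjusted p = 3e-05). The 0.5 h call was lost with voom (adjusted p = 0.05003) and with WT fitted alone (adjusted p = 0.0624). By fraction, the 0.5 h fall passed in cytosol (-2.07, adjusted p = 0.00104) but not in ER (-0.72, adjusted p = 0.277). The 1 h fall passed in ER (-1.96, adjusted p = 0.00407) but not in cytosol (-1.25, adjusted p = 0.055). At 2 h neither cytosol (adjusted p = 0.134) nor ER (adjusted p = 0.277) passed. The 2 h call was lost on leaving out any 1 library other than ER a of 0 h or cytosol a of 2 h (adjusted p = 0.0726 to 0.184), with voom (adjusted p = 0.127), with WT alone (adjusted p = 0.244) and with a pseudocount of 0.25 (adjusted p = 0.143), and it held without the shallow libraries (adjusted p = 0.000421) and with TMM scaling (adjusted p = 0.0171). The 4 h value passed without the shallow libraries (adjusted p = 0.00401) and with a pseudocount of 4 (adjusted p = 0.0408).

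In S51A, Wipi1 cytosol footprints were 19.8 and 13.3 RPKM at 0 h, 20.1 and 17.5 at 1 h, and 25.4 and 19.3 at 4 h. In S51A ER they were 5.91 and 8.57 at 0 h, 6.80 and 6.87 at 1 h, 10.0 and 7.98 at 2 h, and 14.1 and 13.4 at 4 h. The ER libraries of 4 h were above both untreated ones, while the cytosol libraries overlapped. The 4 h change in S51A was 0.64 ± 0.34 (adjusted p = 0.289 in limma with all genotypes, 0.0395 with S51A alone and 0.00344 with voom). Between S51A and WT the change of Wipi1 differed by 1.68 ± 0.48 at 1 h (adjusted p = 0.0193) and by 1.41 ± 0.48 at 4 h (adjusted p = 0.0631), higher in S51A both times. At 1 h the call was lost without WT ER b of 0 h, WT ER b of 1 h or S51A cytosol b of 0 h (adjusted p = 0.0581 to 0.0704), and with these 2 genotypes fitted alone (adjusted p = 0.0581). At 4 h it passed without WT ER a of 0 h (1.63, adjusted p = 0.0417), with a pseudocount of 4 (adjusted p = 0.00771), with TMM scaling (0.0294), with voom (0.0129) and without the shallow libraries (0.000646). Cells labelled ATF4-/- had pooled totals of 10.9 RPKM at 0 h, 6.87 at 0.5 h and 7.86 at 4 h, and no change was called; the 0.5 h value of -0.61 passed without the shallow WT libraries (adjusted p = 0.0252) and with this line fitted alone (adjusted p = 0.0305).

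**Figure D3:**
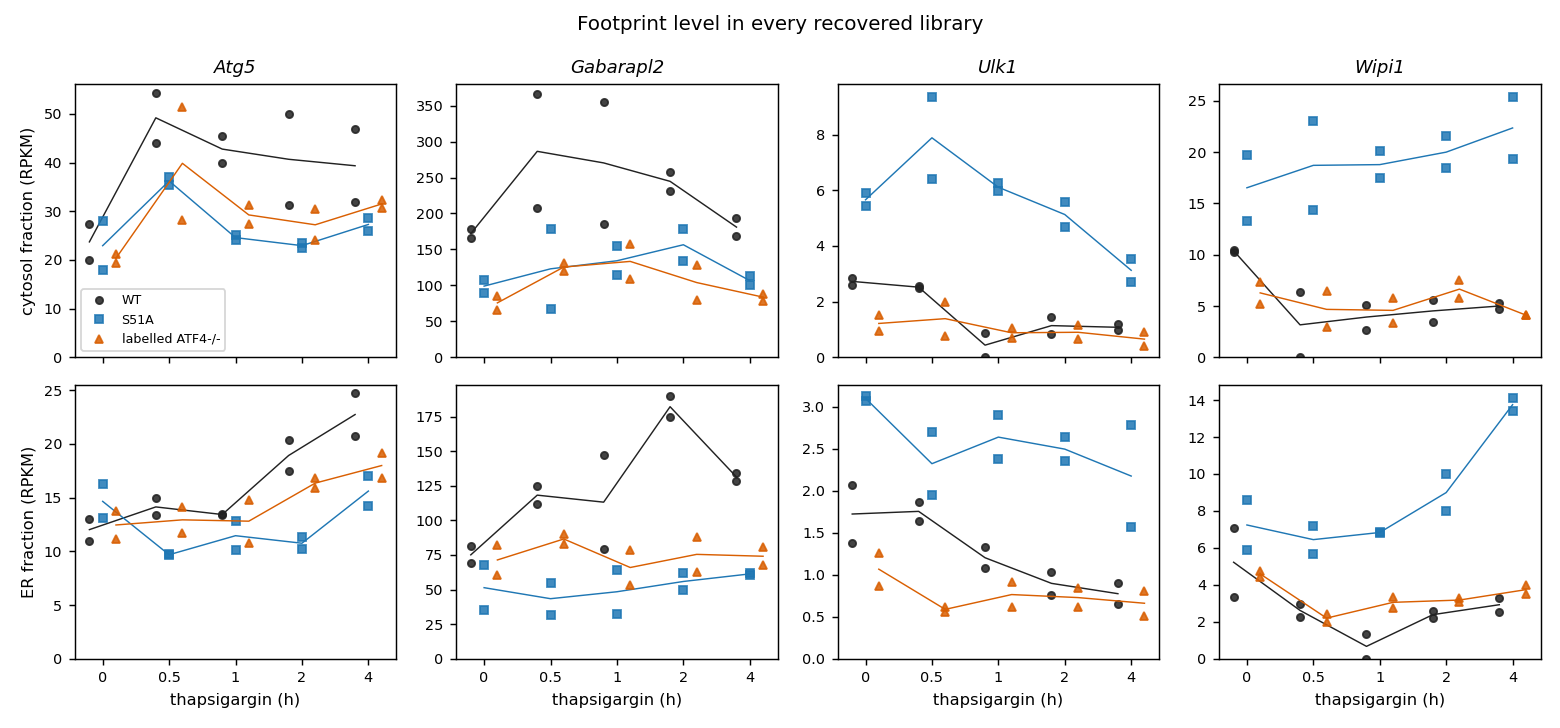
Footprint level in RPKM (vertical axis, from 0) of Atg5, Gabarapl2, Ulk1 and Wipi1 in every recovered library at each time, cytosol above and ER below, with lines through the mean of the 2 libraries; colours as for the pooled totals. The WT cytosol points of Ulk1 drop from 2.60 and 2.86 at 0 h to 0.875 and 0 at 1 h, while S51A points of Wipi1 in ER climb to 14.1 and 13.4 at 4 h.

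Atg5, the acceptor of ATG12 (chr10:44268358-44364291, plus strand, 8 exons), gave the steadiest rise. In WT cytosol its footprints were 27.5 and 19.9 RPKM at 0 h, 44.0 and 54.4 at 0.5 h, 45.5 and 40 at 1 h, 50 and 31.3 at 2 h, and 46.8 and 31.9 at 4 h. In WT ER they were 11 and 13.1 at 0 h, 13.3 and 14.9 at 0.5 h, 13.5 and 13.3 at 1 h, 20.4 and 17.5 at 2 h, and 20.7 and 24.7 at 4 h. Each of the treated WT libraries exceeded both untreated ones of its fraction, by little in ER until 2 h. The change was 0.63 ± 0.16 (SE) at 0.5 h (adjusted p = 0.0041), 0.50 at 1 h (adjusted p = 0.0224), 0.67 at 2 h (adjusted p = 0.00283) and 0.78 ± 0.16 at 4 h (adjusted p = 0.000801), by limma. At 0.5 h it was 1.03 in cytosol (adjusted p = 0.000878) and 0.22 in ER (adjusted p = 0.528). The 1 h call was lost without cytosol b of 0 h, ER a of 0 h or cytosol a of 1 h (0.39 to 0.45, adjusted p = 0.06 to 0.124), with voom (adjusted p = 0.0511) and with WT fitted alone (adjusted p = 0.0717).

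In cells labelled ATF4-/- Atg5 cytosol footprints were 19.4 and 21.3 RPKM at 0 h, 28.3 and 51.4 at 0.5 h, and 30.7 and 32.3 at 4 h. Their ER footprints were 11.1 and 13.8 at 0 h, 11.7 and 14.1 at 0.5 h, and 19.1 and 16.8 at 4 h. At 4 h all 4 libraries were above the untreated ones of their fraction. The 4 h change was 0.55 ± 0.16 (adjusted p = 0.0175), and the 0.5 h change was 0.46 (adjusted p = 0.0552), which passed with voom (adjusted p = 0.0331) and without cytosol a of 0.5 h (0.68, adjusted p = 0.00658). The 4 h call was lost with TMM scaling (0.50, adjusted p = 0.0524) and without cytosol a or ER a of 0 h or cytosol b or ER a of 4 h (0.48 to 0.54, adjusted p = 0.0562 to 0.0832). In S51A, Atg5 went from 27.9 and 17.9 RPKM in cytosol at 0 h to 25.9 and 28.7 at 4 h, and from 16.2 and 13.1 to 14.2 and 17 in ER, so the times overlapped. The 4 h change differed between S51A and WT by -0.60 ± 0.23 without passing (adjusted p = 0.114), except without S51A cytosol b of 0 h (-0.76, adjusted p = 0.0429), which also let the 1 h difference pass (-0.75, adjusted p = 0.0494).

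Atg3, the enzyme that hands ATG8 proteins to lipid (chr16:45158785-45188538, plus strand, 12 exons), differed between the lines more than any other member in its adjusted p, and no change with time was called with all libraries and both fractions. Untreated WT footprints were 84.4 and 62.0 RPKM in cytosol and 34.7 and 41.8 in ER. S51A had 29.7 and 19.8 in cytosol and 14.5 and 15.2 in ER. Cells labelled ATF4-/- had 11.9 and 13.2 in cytosol and 9.70 and 15.3 in ER. No library of either line reached the WT range of its fraction. The difference from WT was -1.42 ± 0.21 in S51A (adjusted p = 2.04e-06, limma) and -2.0 ± 0.21 in cells labelled ATF4-/- (adjusted p = 2.04e-09), and both were called under every alternative and with any 1 library left out. In the mRNA table WT was also highest, without a test, while the ranges of the other lines overlapped: pooled Atg3 mRNA totals were 345 to 631 RPKM in WT, between 16.5 and 44.1 in S51A and between 0 and 36.6 in cells labelled ATF4-/-. With time, WT footprints were -0.53 at 0.5 h (adjusted p = 0.0506) and -0.51 at 1 h (adjusted p = 0.0683), and the first passed without cytosol b of 0 h (adjusted p = 0.043) or cytosol a of 0.5 h (adjusted p = 0.00732), with a pseudocount of 4 (adjusted p = 0.0377) and with a minimum of 5 RPKM (adjusted p = 0.0459). In cells labelled ATF4-/- the 0.5 h value was -0.55 (adjusted p = 0.0802), and it passed in ER alone (-1.01, adjusted p = 0.0194) and without ER a of 0 h (-0.70, adjusted p = 0.0451).

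The call of Atg12, the ubiquitin-like modifier of ATG5, rests on 1 library. WT cytosol footprints were 40.7 and 35.2 RPKM at 0 h, 32.3 and 0 at 0.5 h, 31.5 and 61.6 at 1 h, 66.9 and 60.9 at 2 h, and 63.8 and 73.3 at 4 h. In WT ER they were 18.7 and 25 at 0 h, 20.8 and 25.1 at 0.5 h, 28.1 and 108 at 1 h, 51.5 and 49.3 at 2 h, and 48.9 and 56.1 at 4 h. At 2 and 4 h all WT libraries were above the untreated ones. The 0.5 h value of -1.34 ± 0.52 (adjusted p = 0.0438, limma) became -0.07 (adjusted p = 0.909) without the cytosol library listed at 0, in which 3 reads would be 13.8 RPKM. It was also lost without any of the other libraries except cytosol a of 0.5 h (adjusted p up to 0.122), with voom (-0.67, adjusted p = 0.312), with TMM scaling (adjusted p = 0.0556) and with WT fitted alone (adjusted p = 0.229). The changes of 0.96 at 2 h and 1.04 ± 0.52 at 4 h had adjusted p of 0.182 and 0.169, and both passed with voom (adjusted p = 0.0182 and 0.00501) and without the 3 shallow libraries (adjusted p = 0.00113 and 0.000673). Pooled totals were 30.5 to 41.2 RPKM in S51A and 41.9 to 58.7 in cells labelled ATF4-/-, with no change called. Without the 3 shallow libraries the 4 h change differed between S51A and WT by -1.02 (adjusted p = 0.0257), lower in S51A.

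Among the ATG8 genes, Gabarapl2 (chr8:111940703-111953612) was the one called with time, higher in WT at 2 h. WT cytosol footprints were 178 and 166 RPKM at 0 h, 207 and 366 at 0.5 h, 185 and 355 at 1 h, 231 and 258 at 2 h, and 194 and 168 at 4 h. In WT ER they were 68.9 and 81.2 at 0 h, 112 and 125 at 0.5 h, 147 and 79.4 at 1 h, 174 and 190 at 2 h, and 134 and 129 at 4 h. All libraries of 0.5 and 2 h lay above the untreated ones of their fraction. The change was 0.66 ± 0.26 (SE) at 0.5 h (adjusted p = 0.0506), 0.55 at 1 h (adjusted p = 0.116), 0.89 at 2 h (adjusted p = 0.0133) and 0.44 at 4 h (adjusted p = 0.273), by limma. At 2 h it was 1.27 in ER (adjusted p = 0.0216) and 0.50 in cytosol (adjusted p = 0.415). The 0.5 h value passed with TMM scaling (0.69, adjusted p = 0.0259) and without cytosol a of 0.5 h (0.87, adjusted p = 0.0128) and the 1 h value without cytosol a of 1 h (0.78, adjusted p = 0.0327) or ER b of 1 h (0.77, adjusted p = 0.0469).

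Gabarap (chr11:69991143-69994951), a trafficking protein of the GABARAP branch and the most footprinted member, showed no called change with time. Its pooled totals were 612 to 762 RPKM in WT, between 1045 and 1262 in S51A and between 395 and 452 in cells labelled ATF4-/-. Map1lc3b (chr8:121590361-121598760), the LC3 form most used as an autophagy marker, had 230 to 280 RPKM in WT, between 296 and 395 in S51A and between 127 and 177 in cells labelled ATF4-/-. For both genes the pooled ranges of the 3 lines did not overlap, with S51A highest. Single libraries of Map1lc3b did overlap between untreated S51A and WT, at 250 and 169 against 203 and 170 RPKM in cytosol and 64.6 and 119 against 61.1 and 78 in ER, a difference of 0.25 ± 0.22 (adjusted p = 0.4). Those of Gabarap overlapped in ER, at 197 and 403 RPKM in S51A against 194 and 296 in WT. In cytosol they did not, at 873 and 616 against 605 and 427. The untreated difference of Gabarap was 0.38 ± 0.19 (adjusted p = 0.115, limma). Gabarap passed in WT at 0.5 h without cytosol a of that time (-0.53, adjusted p = 0.0308), and in S51A at 4 h without ER b of 0 h (0.68, adjusted p = 0.0257), where the difference from the WT change passed too (0.84, adjusted p = 0.0373).

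Map1lc3a (chr2:155276297-155278073), the other LC3 form measured, moved with wide scatter. S51A cytosol footprints were 51.1 and 34 RPKM at 0 h, 69.6 and 77.3 at 2 h, and 87.7 and 49.0 at 4 h. In S51A ER they were 5.46 and 31.6 at 0 h, 48.7 and 20.0 at 2 h, and 47.9 and 30.5 at 4 h. In ER the untreated range overlapped both later ones. The S51A change was 0.98 ± 0.44 at 2 h (adjusted p = 0.204, limma) and 1.04 ± 0.44 at 4 h (adjusted p = 0.164); both passed with voom (adjusted p = 0.0419 and 0.0318) and without ER b of 0 h (adjusted p = 0.0359 and 0.0251). Gabarapl1 (chr6:129533160-129542346), a close relative of Gabarap, had pooled totals of 41.3 to 69.2 RPKM in WT, between 42.7 and 56.1 in S51A and between 15.8 and 22.9 in cells labelled ATF4-/-, with no change called in any line.

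Before treatment the lines already differed in several members. In S51A 3 of 10 were called against WT, beside 35.7% of genes, and in cells labelled ATF4-/- 5 of 10, beside 41.9%. Summed fibroblast markers differed between the lines too, at 2398 to 3571 RPKM in WT, between 5167 and 8110 in S51A and between 3093 and 4222 in cells labelled ATF4-/-, and their part in these differences was not tested. The median of all genes was -0.27 in cells labelled ATF4-/- and -0.01 in S51A, and TMM scaling shifted it by 0.32 and 0.15 to 0.05 and 0.14. The genes called in cells labelled ATF4-/- were 1105 higher and 3262 lower, and with that scaling 2351 higher and 1789 lower, while for S51A 1678 higher and 2042 lower became 2412 and 1414.

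Against this background, Map1lc3a was lower in cells labelled ATF4-/- by a log2 difference of -1.99 ± 0.44 (adjusted p = 0.000448, limma), with 5.23 and 7.65 RPKM in cytosol against 38.3 and 36.1 in WT and with 4.82 and 6.06 in ER against 13.1 and 26. These libraries did not overlap with WT, and the call remained with TMM scaling (-1.58, adjusted p = 0.00298). Gabarap was at -0.85 ± 0.19 (adjusted p = 0.000419), with 205 and 262 RPKM in cytosol against 605 and 427 and with 165 and 158 in ER against 194 and 296. Its groups did not overlap either, but the call was lost with TMM scaling (-0.40, adjusted p = 0.0834). Ulk1 was at -0.58 ± 0.18 (adjusted p = 0.0101), lost with TMM scaling (-0.30, adjusted p = 0.167) and without WT ER b or ATF4-/- cytosol b of 0 h (adjusted p = 0.0604 and 0.0624). Gabarapl1 was at -0.84 ± 0.34 (adjusted p = 0.0476), which was lost on leaving out any 1 library other than ER a of 0 h of either line (adjusted p = 0.0836 to 0.218). It was also lost with TMM scaling (-0.42, adjusted p = 0.33), voom (adjusted p = 0.176) and either other pseudocount (adjusted p = 0.0507 and 0.0508), and called without the shallow libraries (adjusted p = 0.0395) and with these lines fitted alone (adjusted p = 0.017). Map1lc3b at -0.52 (adjusted p = 0.0512) and Gabarapl2 at -0.63 (adjusted p = 0.0518) missed the threshold; the first passed without WT ER a or ATF4-/- cytosol b of 0 h (adjusted p = 0.0453 and 0.038), the second without ATF4-/- ER b (adjusted p = 0.0485). Both also passed with these lines fitted alone (adjusted p = 0.0266 and 0.0227), without the shallow libraries (0.0407 and 0.0264), with a pseudocount of 4 (0.0496 and 0.0486) and with a minimum of 5 RPKM (0.0482 and 0.049).

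Ulk1 was the member called higher in untreated S51A, by 0.72 ± 0.18 (adjusted p = 0.00193), at 5.42 and 5.89 RPKM in cytosol against 2.60 and 2.86 in WT. It stayed called with each library left out and under each alternative that tested it. Gabarapl2 was lower in S51A by a log2 difference of -0.70 ± 0.26 (adjusted p = 0.0358), with 108 and 89.9 RPKM in cytosol against 178 and 166 and with 34.9 and 67.8 in ER against 68.9 and 81.2. The groups did not overlap, but the call was lost with TMM scaling (-0.50, adjusted p = 0.1), with these lines fitted alone (adjusted p = 0.0656) and without WT cytosol a, WT cytosol b, WT ER b, S51A cytosol b or S51A ER a (adjusted p = 0.0641 to 0.23). Gabarap in S51A was at 0.38 (adjusted p = 0.115) and passed without WT ER b (adjusted p = 0.0482) or S51A ER a (adjusted p = 0.0095), with TMM scaling (0.59, adjusted p = 0.0118) and with voom (0.44, adjusted p = 0.0449). Atg12 and Wipi1 in S51A passed with voom (-0.76, adjusted p = 0.0333, and 0.80, adjusted p = 0.00527) and without the shallow libraries (adjusted p = 0.00319 and 0.03). Atg5 differed little between untreated lines, at 35.7, 37.6 and 32.8 RPKM in pooled totals of WT, S51A and cells labelled ATF4-/-.

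**Figure D4:**
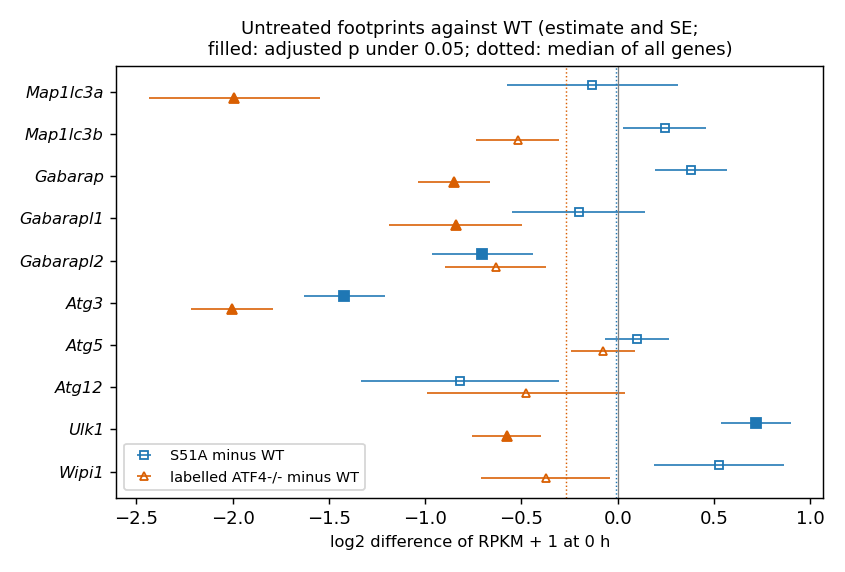
Log2 difference of footprint RPKM + 1 from WT at 0 h (horizontal axis) for each member, with bars of 1 SE, blue squares for S51A, orange triangles for cells labelled ATF4-/- and filled symbols for adjusted p under 0.05 in limma; dotted lines mark the median of all genes, -0.01 and -0.27. Atg3 lies far to the left in both lines, at -1.42 and -2.0, and Map1lc3a in cells labelled ATF4-/-, at -1.99.

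The members had a lower median ER share than all genes. Levels are relative within each library, so this share does not measure the part of a gene's ribosomes that is on the ER. The authors' deposited share of footprints on the ER had a median over the members of 34% in WT, 30.5% in S51A and 41.5% in cells labelled ATF4-/- at 0 h, below the medians of all genes with a mean total of at least 1 RPKM, 40.3, 39.5 and 47.0%. The share dipped at 0.5 h and was higher by 4 h. From 0 to 0.5 h it was lower for 7, 8 and 9 of 10 members in the same order of lines, beside 76.2, 89 and 95.1% of all genes, and from 0.5 to 4 h higher for 10 of 10 in each line, beside 86.6, 95.6 and 97.1%. Atg5 in WT had 33.6% on the ER at 0 h, 22.3% at 0.5 h and 36.6% at 4 h. Atg12 and Ulk1 in WT stood apart at 1 h, at 59.4 and 57.9%. Library b of Atg12 in ER was at 108 RPKM at that time. Library b of Ulk1 in cytosol was listed at 0, so its pooled cytosol level rests on library a alone. These shares are pooled values with no replicate error and were not tested.

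**Figure D5:**
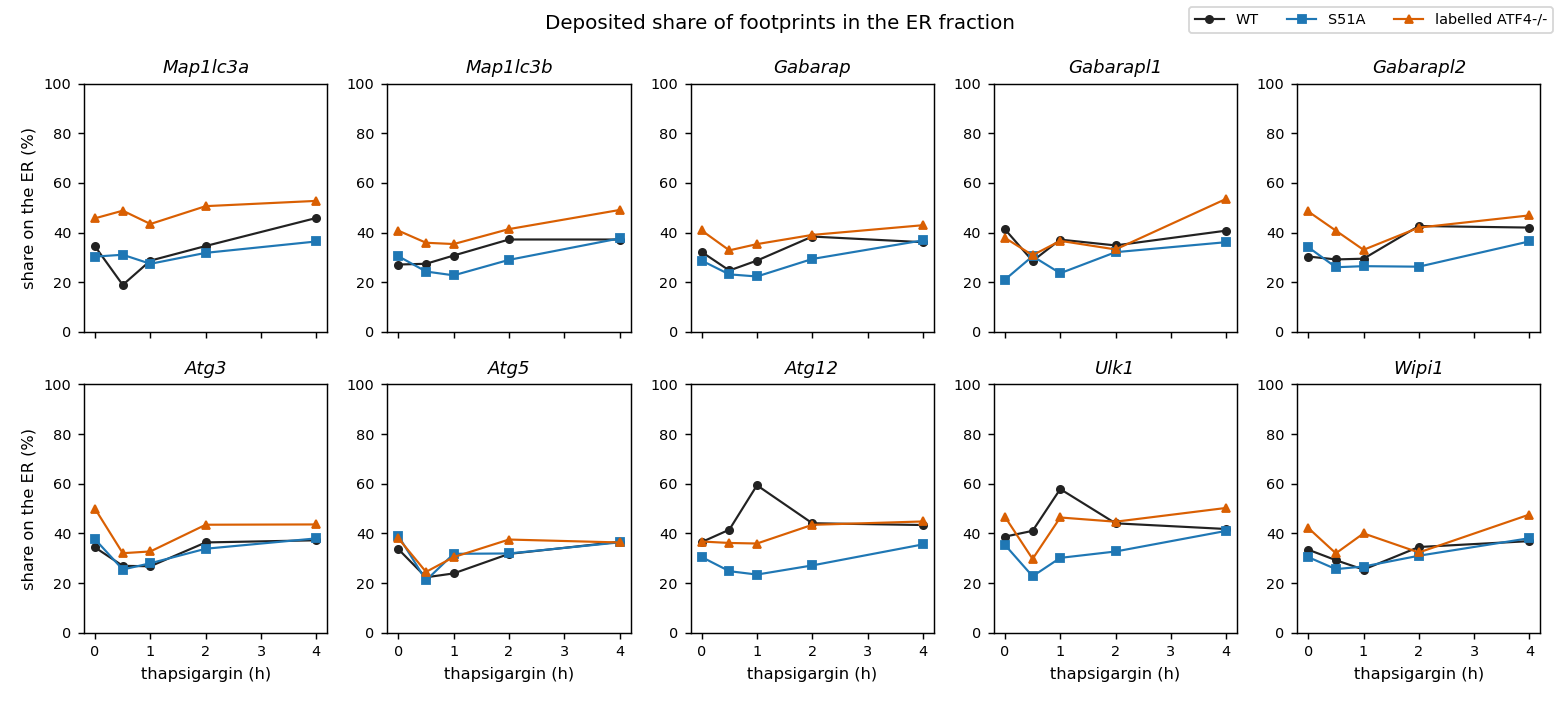
Authors' share of each member's footprints in the ER fraction (vertical axis, 0 to 100%) against hours of thapsigargin; colours as for the pooled totals. Most lines dip at 0.5 h and are highest near 4 h, and WT Atg12 and Ulk1 peak at 1 h, at 59.4 and 57.9%.

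The mRNA libraries were too shallow to follow most members. WT mRNA libraries held 56945 to 118510 reads, S51A 667 to 555962 and those of cells labelled ATF4-/- 207 to 300926, the last with 1 recovered library per group and so no test. WT mRNA libraries had a median of 0 to 2.5 reads per member, except Atg3 with 63. Of the 9 members tested (not Ulk1), none of 36 values was called in WT, where 0, 0, 0.00972 and 0.0681% of genes were called at the 4 times, nor in S51A, where 0.00972, 0.0681, 0.0875 and 0.0583% were. In limma 1 WT and 4 S51A values had an unadjusted p under 0.05, and voom called none. The 4 in S51A were all at 4 h, where 1448 of 10283 genes had such a p. The median change there was 2.38 over the members and 0.65 over all genes. The untreated S51A cytosol library b, part of that contrast, held 14122 reads. What sets the members above all genes there was not tested. The footprint change of WT at 4 h was also set against the mRNA change. None of 10 members was called, beside 0.0278% of genes. In limma 1 member had an unadjusted p under 0.05, beside 750 of 10773 genes. That member was Ulk1, which had at most 3 mRNA reads in any WT library, so its value is not given. Atg3, the member with most mRNA reads, had -0.26 ± 0.26 (adjusted p = 0.906).

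Of 40 other genes of the pathway, 39 could be tested. In WT 9 were higher and 5 lower at 0.5 h, 5 and 7 at 1 h, 8 and 2 at 2 h, and 8 and 0 at 4 h, beside 33.1, 28.8, 23.3 and 17.6% of all genes called in either direction. In S51A the counts were 0 and 0, 0 and 0, 2 and 2, and 1 and 1, beside 0, 0.374, 6.95 and 8.23% of all genes. In cells labelled ATF4-/- they were 4 and 2, 2 and 3, 4 and 1, and 5 and 1, beside 13.8, 12.4, 11.5 and 15.8%. At 4 h in WT, 4 of 9 cargo receptors were higher: Sqstm1, which links ubiquitinated cargo to ATG8 proteins, by 1.07 (adjusted p = 0.000774), with pooled totals of 139 and 288 RPKM at 0 and 4 h, Nbr1, a related receptor, by 0.89 (adjusted p = 6.48e-06), Ncoa4, the ferritin receptor, by 0.66 (adjusted p = 0.000773), and Tax1bp1, another ubiquitin-binding receptor, by 0.53 (adjusted p = 0.028). Atg13, a partner of ULK1, was higher by 0.75 (adjusted p = 5.5e-05) and Sec62, an ER-phagy receptor, by 1.06 (adjusted p = 0.00678). The pooled Sec62 total was 71.0 RPKM at 0 h, 73.9 at 0.5 h and 117 at 4 h. Its change averaged over fractions was already 1.08 at 0.5 h, so that average does not follow the total. Sec62 (1.33) and Sqstm1 (1.11) were among the 5 called higher at 4 h in cells labelled ATF4-/-. Of the 8 other conjugation genes 2 were higher, Atg4a (0.77, adjusted p = 0.0189) and Atg4b (0.39, adjusted p = 0.046), which encode proteases that process ATG8 proteins. Rb1cc1, a scaffold that works with ULK1, had WT totals of 39.4 RPKM at 0 h, 15.2 at 1 h and 39.3 at 4 h; it was lower at 1 h by a log2 change of -1.32 (adjusted p = 1.67e-07), and this change differed in S51A by 1.18 (adjusted p = 0.00064). Nbr1 changed less in S51A than in WT at 4 h (-1.06, adjusted p = 0.000188). Untreated, 9 were higher and 7 lower in S51A, beside 35.7% of all genes called, and 4 higher and 16 lower in cells labelled ATF4-/-, beside 41.9%, where TMM scaling turned the balance of all genes from mostly lower to mostly higher.

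Over the 15 combinations of genotype and time, the genes whose pooled footprint totals followed the most variable members most closely were read out among 8824 genes with a mean total of at least 5 RPKM. For Map1lc3a these were Twsg1, Prss35 and Cnn1 (Pearson r 0.98 each on log2 totals), for Atg3 Stk17b, Phf11d and Usp18 (r 0.99 each), and for Wipi1 Tmem165, Slc35f5 and Tspan3 (r 0.97 each). The combinations share lines and libraries, so these coefficients mostly rank genes by their differences between 3 lines.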

How the data were processed

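Ribosome profiling and mRNA sequencing of cytosol and ER fractions gave the deposited tables, made by the authors with cutadapt 1.6 and Bowtie 1.1.1, per the submitters' processing notes; the genome build was not among the sources used here. The values deposited by the authors are RPKM totals (ER plus cytosol, pooled over replicates; the unit was read from the values). The second deposited quantity is a ratio, the ER level over the total, printed here as a percent. Levels of single libraries were recovered by solving each total in whole reads of 2 libraries per fraction, or of 1 in the mRNA of cells labelled ATF4-/- (relative tolerance 8e-12), taking each fraction as a mean over libraries with reads; 98.1% of footprint and 98.2% of mRNA values were solved, and unsolved values were not used. Recovered libraries carry no replicate number.

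Groups came from the labels, in 60 groups of 2. Footprint levels were tested in limma 3.58.1 (R 4.3.3) on log2(RPKM + 1) with a mean-variance trend, for genes at 1 RPKM or more in at least 10 libraries. One fit held every footprint library, contrasts were averaged over both fractions (4 libraries against 4), and p-values were adjusted by Benjamini-Hochberg over all genes. Both fractions entered as independent libraries. The mRNA of WT and S51A was tested likewise. Read recovery was tried on simulated reads of 2 footprint groups. The limma step was tried on 1 simulated contrast, WT at 4 h against 0 h, with a fixed scatter between libraries. The mRNA fits, voom and the differences of changes were not simulated. A fold change on this scale understates that of low genes such as Ulk1. Alternatives were pseudocounts of 0.25 and 4, other filters, TMM scaling, voom on recovered reads, single fractions, fits of the compared genotypes alone, each library left out, and libraries under 500000 footprint reads left out together.

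The members, gene lists and tests were chosen with earlier results of these data known. All members are named; of the other pathway genes, the 8 called in WT at 4 h and at most 4 in other comparisons are; likeness was read for the 3 members of widest range, with 3 genes each. Sequences came from the GRCm38 transcripts and from RefSeq promoters.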

Additional observations from a re-analysis of the deposited data

Results flagged for a closer look

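The change of Ulk1 from 0 to 1 h differed between S51A and WT by 0.83 on the log2 scale, a test of the difference of changes in limma (adjusted p = 0.0311). The corresponding difference for Wipi1 was 1.68 (adjusted p = 0.0193). Both were higher in S51A, and both changed side of the threshold when single libraries were left out.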

How the results depend on the processing

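Of 40 WT values over time 12 were called; 6 were called with WT fitted alone, 3 in ER alone, and 10 to 15 with 1 library left out. S51A had 0 of 40, against 1 with a pseudocount of 4, 1 with TMM scaling, 4 with voom, 2 without libraries under 500000 reads, 2 with S51A fitted alone and 0 to 3 with 1 library left out. Cells labelled ATF4-/- had 1 of 40, against 2 with a minimum of 5 RPKM, 0 with TMM scaling, 2 with voom, 3 without libraries under 500000 reads, 2 fitted alone and 0 to 2 with 1 library left out. Of 40 differences between genotypes 2 were called, against 1 with a minimum of 5 RPKM, 1 with the compared genotypes alone, 3 each with a pseudocount of 4, with TMM scaling and without libraries under 500000 reads, and 0 to 3 with 1 library left out. Of 20 untreated differences 8 were called, against 5 with TMM scaling, 10 with voom, 12 without libraries under 500000 reads and 6 to 9 with 1 library left out. These counts have no share of all genes beside them, and that share moves with the setting too. For untreated cells labelled ATF4-/- the genes called were 1105 higher and 3262 lower, and with TMM scaling 2351 and 1789. The counts therefore describe the processing and are not a result about the members. No mRNA value was called under any alternative run. Atg12 in WT at 0.5 h reversed, from -1.34 to 0.076 in ER alone. The cytosol library listed at 0 is not in that contrast, but it is in the fit that gave its error. The causes of the other differences were not tested. No paired analysis was possible because the recovered libraries carry no replicate number. WT mRNA libraries held a median of 0 to 2.5 reads per member, except Atg3.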
